A study of Mus musculus with 2 samples.

Results

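The cells described here form subcluster 11 of the authors' finer clustering (resolution 0.8) and are the dividing dendritic cells among CD45+ JAML+ cells sorted from mouse tumours. The subcluster held 129 of 5976 cells, or 2.16% (exact 95% binomial interval 1.81 to 2.56%), and membership was taken from the deposited cluster number alone. All cells came from 1 gene expression library made with 10x Genomics 5' chemistry, in which hashtag antibodies marked 3 samples that are taken here as 3 mice. The series has 1 group and no second condition. The hashtag names carry B16F10, a mouse melanoma line, and the words isotype-CTRL, which all 3 mice share, while strain, age and further treatment are not given in the sources used here. A second library of the same sort holds antibody tags and was not analysed here. According to the labels the sort contained T cells, and the extraction text adds the word TREG. Subcluster 11 did not carry the transcripts of that labelled type. Its summed level of the defining T cell markers Cd3d, Cd3e, Cd3g, Trac and Trbc2 ranged over the mice from 44.1 to 146 CPM (counts of RNA molecules, or UMIs, on a common per-total scale), against 5344 to 5497 CPM in the dividing T cell subclusters 8 and 14.

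Conventional dendritic cells take up antigen and present it to T cells on major histocompatibility complex (MHC) molecules. They fall into type 1 cells, which carry the chemokine receptor Xcr1 and depend on the transcription factors Irf8 and Batf3, and type 2 cells, which carry Sirpa and depend in part on Irf4. Their precursors come from the bone marrow, can still divide in tissues, and expand under the ligand of the receptor Flt3. A dividing cell copies its DNA in S phase, when replication and histone genes are transcribed, and then builds a spindle and divides in G2 and M phase, when Mki67, Top2a and the B-type cyclins are most strongly transcribed.

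The cells of subcluster 11 were deeply sequenced. Their median depth was 33473 UMIs per cell, between 2953 and 49843, with 5008 genes detected, against 14287 UMIs and 3451 genes in all other cells. The median share of mitochondrial UMIs was 1.49% in subcluster 11 and 2.23% in the other cells. Median UMIs were 26945 in subcluster 6, 24415.5 in subcluster 4 and 26700 in subclusters 8 and 14 together. The mice gave 65, 32 and 30 cells of subcluster 11, and 2 of its cells had no hashtag and were left out of values per mouse. The subclusters and labels were built by the authors on the genes of these same cells, so no gene comparison below carries a test or a p-value. A level is the CPM of UMIs summed over the cells of a class in a mouse. A fold is the mean over mice of the log2 difference of CPM plus 5, taken off the log scale, and an error is an SD over mice. A gene was counted as higher or lower where it differed at least 2-fold in the same direction in every mouse, among genes with a mean of at least 10 CPM in either class.

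The 4 markers of the label were present together. Mki67, a nuclear protein that marks cells in cycle, stood at 312.5, 324 and 372 CPM in mice 1, 2 and 3 (336 ± 31.4, SD, n = 3). It was the second highest of 16 subclusters, below every mouse of subcluster 8 (548 ± 80.0 CPM) and overlapping subcluster 14 (319 CPM, mean of 2 mice), which are both dividing T cells. Top2a, the topoisomerase that untangles copied DNA, stood at 407, 491 and 501 CPM (466 ± 51.8), again second to subcluster 8 at 769 CPM. All other subclusters apart from 8 and 14 lay far below, with Mki67 at 34.8 CPM or less and Top2a at 70.6 CPM or less on average. Flt3 stood at 92.2, 101 and 135 CPM (110 ± 22.8), the fourth highest mean, after subclusters 6, 12 and 13. Its mice overlapped those of subcluster 13 and, just, of the plasmacytoid subcluster 0 below it. H2-Ab1, the beta chain of the MHC class II molecule I-A, stood at 11040, 10440 and 10230 CPM (10570 ± 420), the third highest mean after subclusters 4 and 6, with mice that overlapped those of subcluster 6. Per cell, Mki67 UMIs were found in 127 of the 129 cells and Top2a UMIs in 111, with both in 110 (85.3%) and neither in 1. Both transcripts were found together in 88.0% of the dividing T cells, 11.1% of subcluster 6, 5.34% of subcluster 4 and 0.532% of the Siglech-labelled plasmacytoid cells, which were sequenced less deeply, at a median of 13486 UMIs.

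**Figure D1:**
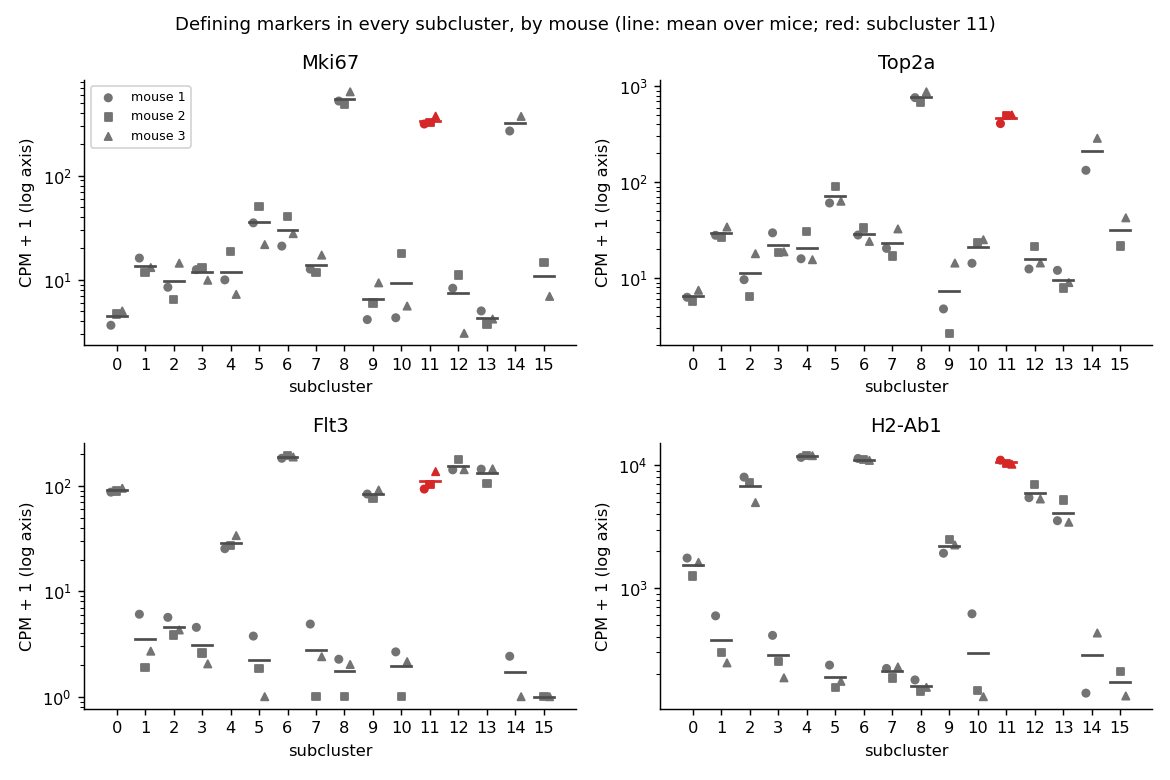
Levels of Mki67, Top2a, Flt3 and H2-Ab1 in each of the 16 subclusters, in CPM plus 1 on a log axis, with 1 point per mouse that has at least 10 cells and a line at the mean. Subcluster 11 (red) is high in all 4 panels: it sits beside subclusters 8 and 14 for Mki67 and Top2a, and beside subclusters 4 and 6 for H2-Ab1.

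Genes of the cell cycle are among those highest in these cells, and the promoters of such genes are known for short shared sequence elements. The cell cycle homology region (CHR, searched as TTTGAA or TTTAAA) and the CCAAT box are known elements of promoters active in G2 and M phase, and E2F sites (searched as TTTGGCGC, TTTCCCGC, TTTCGCGC or TTTGCCGC) of promoters active at the start of S phase. Both strands were searched over 300 bases around the annotated start in RefSeq, build GRCm38.p6. A CCAAT box that adjoins its mirror image, as in Ube2c, was counted in both orientations, and E2F matches may overlap each other. The first 4 promoters below belong to genes of G2 and M phase and the last 2 to genes of the replicative helicase. They are examples, and levels are given in the text for all of them but Mcm5. Other genes with levels in the text lacked some elements and are not printed. Birc5 held a CHR match but 0 CCAAT matches, Rrm2 held no E2F match, and Tyms held none of the 3 elements. Capitals mark the matches.
Mki67 (chr7:135716330-135716629, minus strand): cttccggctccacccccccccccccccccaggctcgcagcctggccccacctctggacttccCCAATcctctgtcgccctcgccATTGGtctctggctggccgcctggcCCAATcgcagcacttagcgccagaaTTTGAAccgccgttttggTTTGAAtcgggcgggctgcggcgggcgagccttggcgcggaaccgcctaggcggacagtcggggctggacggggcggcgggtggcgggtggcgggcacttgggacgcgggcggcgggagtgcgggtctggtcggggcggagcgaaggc
Top2a (chr11:99024140-99024439, minus strand): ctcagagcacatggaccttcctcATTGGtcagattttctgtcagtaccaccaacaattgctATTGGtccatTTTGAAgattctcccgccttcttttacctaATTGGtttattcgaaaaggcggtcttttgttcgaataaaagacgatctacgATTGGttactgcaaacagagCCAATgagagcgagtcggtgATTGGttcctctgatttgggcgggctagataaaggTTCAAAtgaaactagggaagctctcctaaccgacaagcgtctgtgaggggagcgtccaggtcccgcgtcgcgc
Ccnb1 (chr13:100786437-100786736, minus strand): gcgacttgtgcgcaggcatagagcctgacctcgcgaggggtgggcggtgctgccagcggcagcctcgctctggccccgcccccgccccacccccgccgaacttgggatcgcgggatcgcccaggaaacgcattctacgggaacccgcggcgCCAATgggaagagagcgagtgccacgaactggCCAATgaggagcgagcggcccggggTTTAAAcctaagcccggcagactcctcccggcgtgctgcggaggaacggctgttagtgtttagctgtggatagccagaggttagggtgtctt
Ube2c (chr2:164769679-164769978, plus strand): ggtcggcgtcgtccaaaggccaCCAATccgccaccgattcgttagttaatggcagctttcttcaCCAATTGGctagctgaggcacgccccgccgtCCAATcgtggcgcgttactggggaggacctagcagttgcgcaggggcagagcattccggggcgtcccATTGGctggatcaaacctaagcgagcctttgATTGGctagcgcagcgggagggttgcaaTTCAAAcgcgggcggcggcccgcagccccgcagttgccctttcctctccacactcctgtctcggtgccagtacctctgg
Mcm5 (chr8:75109259-75109558, plus strand): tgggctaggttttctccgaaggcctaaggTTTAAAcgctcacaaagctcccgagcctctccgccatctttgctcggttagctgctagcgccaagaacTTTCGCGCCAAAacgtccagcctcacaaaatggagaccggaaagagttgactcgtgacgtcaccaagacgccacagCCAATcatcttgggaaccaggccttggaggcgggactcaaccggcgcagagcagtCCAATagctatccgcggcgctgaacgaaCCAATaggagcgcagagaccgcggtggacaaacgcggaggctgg
Mcm6 (chr1:128359656-128359955, minus strand): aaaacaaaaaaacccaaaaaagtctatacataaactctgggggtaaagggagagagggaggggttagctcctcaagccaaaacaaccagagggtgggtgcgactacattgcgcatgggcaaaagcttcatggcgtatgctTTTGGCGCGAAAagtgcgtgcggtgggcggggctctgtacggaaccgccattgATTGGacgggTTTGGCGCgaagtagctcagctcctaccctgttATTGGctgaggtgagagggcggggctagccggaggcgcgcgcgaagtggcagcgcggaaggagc
Of the 52 genes of the G2 and M list, 46 had promoters in the table, 51 in all, and 78.4% of those held a CHR match, against 27.3% of the 33 promoters of 30 of the 42 S phase genes and 27.6% of all 32851 promoters. At least 1 CCAAT match was present in 74.5%, 66.7% and 37.4% of the same 3 sets. E2F matches were the rarer element, in 5.88% of the G2 and M promoters, 36.4% of the S phase promoters and 2.26% of all. A CHR match together with at least 2 CCAAT matches occurred in 49.0% of the G2 and M promoters, 12.1% of the S phase promoters and 3.13% of all promoters. A closer background is the 14219 promoters of genes in the count matrix. Of these, 20.4% held a CHR match, 37.4% a CCAAT match and 3.66% an E2F match. CHR together with at least 2 CCAAT matches occurred in 2.78% of them. The S phase share of CHR matches was thus above this background. Only the promoters of these 2 lists were set beside all promoters, not those of all genes higher in subcluster 11. The matches are letters in a window and no binding was measured.

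By the authors' coarser labels, 82 of the 129 cells (63.6%) carried the Xcr1 label, 44 (34.1%) the Ifitm1 label and 3 (2.33%) the Pdcd1 label. Dividing cells made up a larger share of the Xcr1-labelled than of the Ifitm1-labelled cells in each mouse. In mouse 1, 37 of 184 Xcr1-labelled cells were in subcluster 11 (20.1%, exact 95% interval 14.6 to 26.6%) against 26 of 350 Ifitm1-labelled cells (7.43%, 4.91 to 10.7%). In mouse 2 the numbers were 18 of 89 (20.2%, 12.5 to 30.1%) against 14 of 142 (9.86%, 5.50 to 15.99%). In mouse 3 they were 26 of 176 (14.8%, 9.88 to 20.9%) against 3 of 200 (1.50%, 0.310 to 4.32%). The intervals, which cover counting error only, do not overlap in mice 1 and 3 and overlap in mouse 2. The labels and subclusters come from the same genes, so the difference was not tested. Over mice the shares were 18.4 ± 3.12% and 6.26 ± 4.30% (SD, n = 3), and their ratio was 2.71, 2.05 and 9.85. Mouse 3 had the lowest share for both labels, and stood further below the other mice on the Ifitm1 side. Its subcluster 11 was 86.7% Xcr1-labelled, against 56.9% in mouse 1 and 56.3% in mouse 2. The whole subcluster made up 2.66, 2.70 and 1.28% of the cells of the 3 mice.

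**Figure D2:**
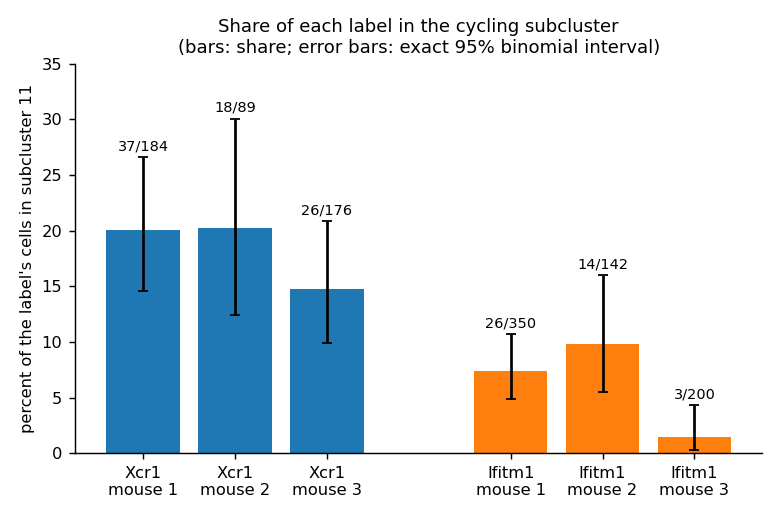
Share of the Xcr1-labelled and of the Ifitm1-labelled cells that fall in subcluster 11, in percent, for each of 3 mice, with exact 95% binomial intervals as bars. The Xcr1-labelled share is the higher in every mouse, 14.8 to 20.2% against 1.50 to 9.86%.

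Subcluster membership is not the only way to count dividing cells. When a dividing cell was defined as any Xcr1- or Ifitm1-labelled cell with UMIs of both Mki67 and Top2a, 181 cells qualified, 109 with the Xcr1 label and 72 with the Ifitm1 label. Of these, 107 were in subcluster 11, 41 in subcluster 6, 28 in subcluster 4 and 5 in the migratory subcluster 12. Under that definition, chosen after the data were seen, the dividing share was 24.2% of Xcr1-labelled and 10.4% of Ifitm1-labelled cells, in place of 18.2% and 6.35%. The order of the labels was the same under both definitions, which share those 107 cells and are not independent. The second was counted over all mice together, without thinning to equal depth.

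Where the dividing cells stood in the cycle was read from summed UMIs per cell after every cell was thinned to 7537 UMIs, the 10th percentile of all cells, which left out 3 shallower cells of the 129. The median of the G2 and M list was 72.5 UMIs (range 29 to 187) in subcluster 11, against 7 in subcluster 6, 7 in subcluster 4 and 93 in subclusters 8 and 14. Every one of the 126 cells lay above 20.9 UMIs, the 95th percentile of subclusters 6 and 4 together. The S phase list had a median of 15.5 UMIs (range 0 to 71), against 4 in subcluster 6, 3 in subcluster 4 and 31.5 in the dividing T cells. On this list 47 of the 126 cells lay above the 95th percentile of the resting subclusters, which was 26.9 UMIs. Resting is used here as a name for subclusters 6 and 4, which were not free of cells with high cycle sums. Their S phase sums had upper quartiles of 8 and 5 UMIs but reached 53 and 49 UMIs. Such cells raise the cutoff, so the 47 are cells above it and not a count of cells in S phase. All 126 cells were therefore high for the G2 and M list, and a part of them was high for the S phase list as well. Those 47 cells were 23 of 80 Xcr1-labelled and 24 of 43 Ifitm1-labelled cells. The median S phase sum was 13 in Xcr1-labelled and 29 in Ifitm1-labelled cells, and clustered histone UMIs were 25 and 35, while the G2 and M medians were 72.5 and 71. Few cells of the other conventional dendritic subclusters reached its lowest G2 and M sum of 29 UMIs: 14 of 367 in subcluster 6 (3.81%), 9 of 516 in subcluster 4 (1.74%) and 0 of 123 in subcluster 12, where a count of 0 allows up to 2.44%. For the S phase median of 15.5 UMIs the shares were larger, 57 cells (15.5%) in subcluster 6 and 48 (9.30%) in subcluster 4. Since the clustering read these genes, the separation describes the subcluster and tests nothing.

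**Figure D3:**
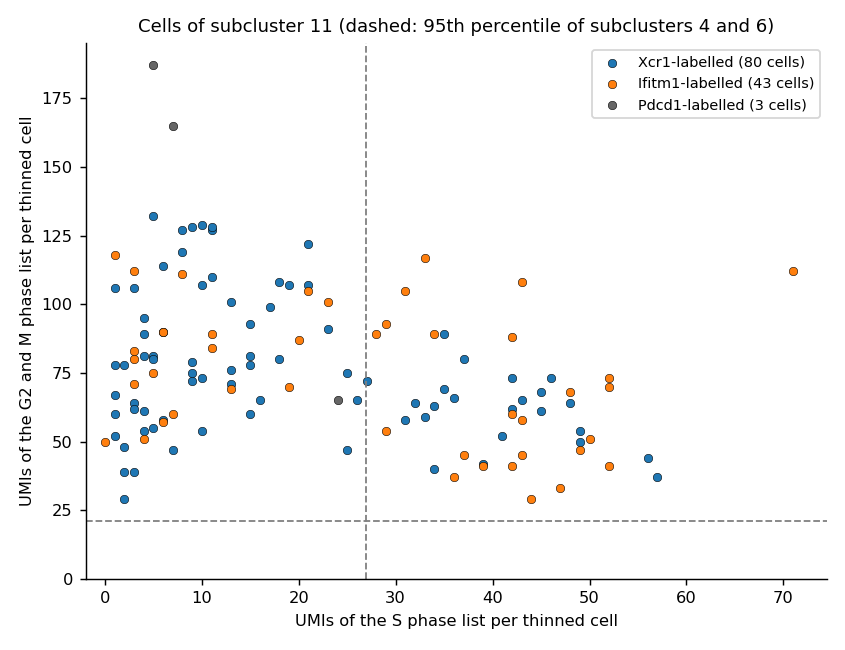
Summed UMIs of the S phase list against the G2 and M list in single cells thinned to 7537 UMIs, for 126 cells of subcluster 11 coloured by label, with dashed lines at the 95th percentile of subclusters 6 and 4 (26.9 and 20.9 UMIs). All cells lie at 29 UMIs or more on the G2 and M axis, above its line, and spread from 0 to 71 UMIs on the S phase axis, where 47 lie beyond the line.

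Against all other cells, 302 of 8051 genes were higher in subcluster 11 in every mouse (3.75%) and 540 were lower (6.71%), and these are the genes the clustering itself could use. H2afx, a histone H2A variant that marks DNA breaks when phosphorylated, stood at 613, 666 and 652 CPM against 98.7, 72.7 and 84.6 CPM (7.23-fold, log2 difference 2.85 ± 0.27). Birc5, the survivin subunit of the chromosomal passenger complex, stood at 511, 468.5 and 467 CPM against 93.6, 53.2 and 51.9 CPM. Stmn1, the microtubule regulator stathmin, stood at 1122, 1276 and 1225 CPM against 276, 182 and 158 CPM. None of these groups of mice overlapped. Of the tested members, 45 of 52 in the G2 and M list were higher, 14 of 42 in the S phase list and 17 of 39 clustered histones, with median log2 differences of 1.98, 1.01 and 1.49 beside −0.12 over all genes. The other cells include the dividing T cells, whose cycle transcripts enter this background. Among identity lists, 15 of 19 type 1 dendritic genes were higher (median 1.63) and 0 of 22 type 2 genes, of which 5 were lower (median −0.74), in a subcluster whose cells carried the Xcr1 label in 63.6% of cases. The genes lower in subcluster 11 included most of those listed for other lineages in the sort, with 14 of 15 plasmacytoid genes, 16 of 16 T cell genes, 11 of 12 natural killer genes and 11 of 12 tested macrophage genes, and also 10 of 20 migratory dendritic cell genes. Ly6d, a surface protein abundant in plasmacytoid cells, stood at 4.63, 15.6 and 5.88 CPM against 523, 360 and 465 CPM. No gene of the tested nucleotide synthesis (22), oxidative phosphorylation (85) and glycolysis (16) lists was higher apart from 2 of nucleotide synthesis, and 1 of each of the other 2 lists was lower.

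The closer comparison set the 82 Xcr1-labelled dividing cells beside Xcr1-labelled cells of subcluster 6, the largest other subcluster with that label and one of type 1 dendritic cells. In this pair 259 of 7258 genes were higher in the dividing cells in all 3 mice (3.57%) and 7 were lower (0.0964%). The counted genes were thus almost all higher in the dividing cells, and 48 of them were in the G2 and M list and 33 were clustered histones. Hist1h2ae, a core histone H2A gene, stood at 487, 504 and 925 CPM against 12.8, 3.71 and 10.3 CPM (46.1-fold). Birc5 stood at 449.5, 469 and 476 CPM against 11.8, 14.8 and 10.9 CPM (27.0-fold, log2 difference 4.75 ± 0.17). Nusap1, which bundles spindle microtubules, stood at 135, 217 and 154 CPM against 1.65, 3.18 and 1.81 CPM (23.7-fold). In each of these genes the lowest dividing mouse lay far above the highest resting mouse.

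The regulators of mitotic entry and exit were in the same group. Ccna2, the cyclin of S and G2 phase, stood at 145, 189 and 137 CPM against 1.65, 3.71 and 3.88 CPM (20.0-fold). Ccnb1, the cyclin of mitotic entry, stood at 102, 116 and 71.9 CPM against 2.60, 0 and 1.03 CPM (16.3-fold). Ube2c, the ubiquitin-conjugating enzyme that works with the anaphase-promoting complex to end mitosis, stood at 358, 433 and 420 CPM against 15.6, 16.9 and 11.9 CPM (20.7-fold). The promoters of Ccnb1 and Ube2c printed above both hold a CHR match and CCAAT matches. By list, 48 of 52 G2 and M genes were higher with a median log2 difference of 2.93, 33 of 37 clustered histones with 2.20, 13 of 41 S phase genes with 0.93, and 9 of 24 cyclins, CDKs and E2F factors, beside a median of −0.02 over all 7258 genes. Clustered histone genes are near-identical copies, so the assignment of UMIs among them is uncertain.

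The replication genes differed less, and several of them were also present in subcluster 6. Mcm6, a helicase subunit, stood at 88.3, 85.6 and 92.1 CPM in the Xcr1-labelled dividing cells and at 87.2, 79.4 and 59.2 CPM in subcluster 6, with mice that overlapped. Tyms, which makes thymidylate for DNA, stood apart at 113, 208 and 176 CPM against 23.2, 29.6 and 19.0 CPM. Summed over the 42 S phase genes, the level was 2369, 2990 and 2896 CPM against 1332, 1317 and 953 CPM, which do not overlap. Of 20 tested nucleotide synthesis genes 2 were higher, among them Tk1 (thymidine kinase), and of 19 brakes of the cycle 2 were higher, Cdkn2c and Cdkn2d. No gene of the tested type 1 identity (19), class II presentation (12), oxidative phosphorylation (86), glycolysis (15), cholesterol synthesis (19), dendritic cell core (17) or interferon response (16) lists was counted in either direction. The type 1 identity genes had a median log2 difference of −0.25 and the class II genes of −0.38, so both stood slightly lower in the dividing cells without reaching 2-fold. Summed type 1 identity was 9278, 9156 and 8227 CPM against 10870, 10280 and 9362 CPM, lower in each mouse. Of the 7 lower genes only Psen2, a subunit of gamma-secretase, passed the level asked of named genes, at 12.4, 11.1 and 12.4 CPM against 35.7, 31.8 and 30.3 CPM. The others were Neurl3, Sdc4, Cybb, Lag3, Sidt2 and Tnfaip2, named here after their values were seen. This count depends on the settings: it was 27 when all cells were thinned to equal depth and 29 with 1 CPM added in place of 5.

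Ifitm1-labelled dividing cells were set beside Ifitm1-labelled cells of subcluster 4, the type 2 dendritic cells, in mice 1 and 2, because mouse 3 had only 3 such cells. In both mice 397 of 7565 genes were higher (5.25%) and 84 were lower (1.11%). After thinning to equal depth 64.5% of the counted genes were higher, against 82.5% here. Hist1h2ap stood at 1509 and 1422 CPM against 8.98 and 15.4 CPM (87.1-fold), and Nusap1 at 223 and 222 CPM against 1.30 and 1.10 CPM (36.8-fold). Rrm2, the regulated subunit of ribonucleotide reductase, stood at 252 and 268 CPM against 4.49 and 13.9 CPM (19.8-fold), and Top2a at 522 and 494 CPM against 14.9 and 29.6 CPM (19.5-fold). In these 4 genes the mice of the classes lay far apart. The G2 and M list gave 47 of 52 higher genes (median log2 difference 2.71), clustered histones 36 of 40 (2.34), S phase genes 37 of 42 (1.76), cyclins, CDKs and E2F factors 14 of 25 and nucleotide synthesis genes 4 of 21, beside −0.02 over all genes. Ccnd2, a D-type cyclin, was the 1 lower gene of the cyclin list, at 99.1 and 116 CPM against 300.5 and 284 CPM.

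On the S phase list, 13 of 41 genes were counted among Xcr1-labelled cells (3 mice) and 37 of 42 among Ifitm1-labelled cells (2 mice). The rule of every mouse asks for less with 2 mice, and the resting partners also differed. The summed level was 3575 and 4245 CPM in Ifitm1-labelled dividing cells of mice 1 and 2, and 2369 and 2990 CPM in Xcr1-labelled ones. In the resting cells of the same mice it was 753 and 1076 CPM in subcluster 4 and 1332 and 1317 CPM in subcluster 6. The label with the higher sum among dividing cells was thus the one with the lower sum among resting cells in both mice. No test of this difference was made, and the mice share their resting and dividing cells' library.

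Genes lower in the Ifitm1-labelled dividing cells included those of myeloid maturation and of monocytes. Lyz2, the lysozyme of macrophages and monocytes, stood at 172 and 158 CPM against 861 and 560 CPM (4.12-fold lower). Csf1r, the receptor of macrophage colony-stimulating factor, stood at 13.2 and 11.4 CPM against 61.4 and 64.0 CPM (3.92-fold lower). Il1b, the interleukin-1 beta gene, stood at 107 and 203 CPM against 496 and 447 CPM. The resting cells were the higher class in both mice for each of these genes. Of 10 tested macrophage and monocyte genes 5 were lower (among them C1qb, C1qc, Ly6c2 and Lyz2; median log2 difference −1.68), of 17 migratory genes 6 (Ccl17, Ccl22, Ccr7, Il4i1, Cd83 and Cd40), of 22 type 2 identity genes 5 (Lyz2, Csf1r, Il1b, Fcgr3 and Zeb2; median −0.63), of 23 interferon response genes 3, and of 12 class II genes 1 (Lgmn, a lysosomal protease). The summed type 2 identity level was 8238 and 6279 CPM against 10650 and 10750 CPM. The 5 defining macrophage markers moved with this comparison, as their sum ranged over the mice from 30.4 to 53.3 CPM in Ifitm1-labelled dividing cells, the 3 cells of mouse 3 included, and from 108 to 183 CPM in subcluster 4, and their part in the lower genes was not tested. Hspa1a, an inducible heat shock chaperone, was lower in both mice, at 11.9 and 30.4 CPM against 129 and 567 CPM, but it varied widely among mice elsewhere, from 6.34 to 269 CPM in Xcr1-labelled dividing cells.

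**Figure D4:**
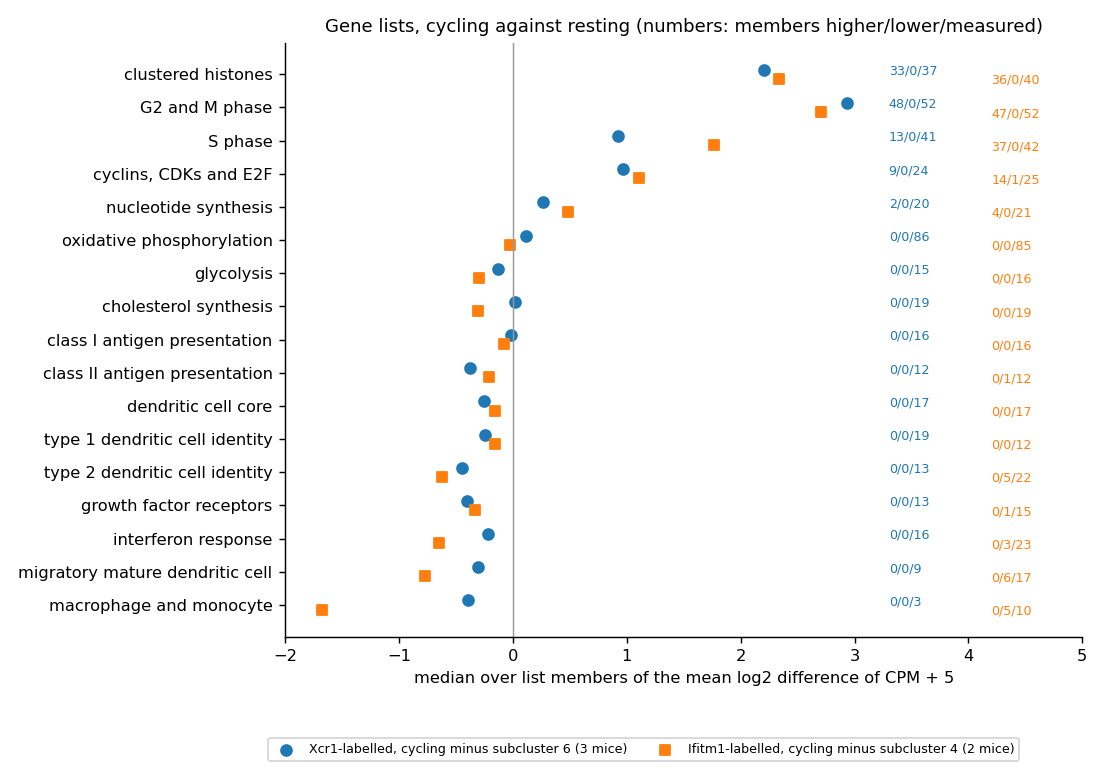
Median log2 difference of each gene list in the dividing cells against resting cells of the same label, with the Xcr1-labelled comparison (3 mice) and the Ifitm1-labelled comparison (2 mice) side by side. The G2 and M list (2.93 and 2.71), clustered histones (2.20 and 2.34) and the S phase list (0.93 and 1.76) stand above 0 in both, and the macrophage and monocyte list is the lowest of the plotted lists in the Ifitm1-labelled comparison (−1.68).

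The sets of genes higher in dividing cells of the 2 labels were largely shared. Among 6869 genes measured in both comparisons, 256 were higher in the Xcr1-labelled and 374 in the Ifitm1-labelled comparison, and 227 were higher in both, which is 88.7% of the first set and 60.7% of the second. Of the lower genes, 7 and 43, 4 were shared (57.1% and 9.30%), and 0 genes were counted in opposite directions. The Xcr1-labelled comparison asked for 2-fold in 3 mice and the Ifitm1-labelled one in 2, which is easier to meet. The sizes of the sets and the shares are thus not on equal terms. The comparisons use no cell in common but come from the same mice and the same library.

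Within subcluster 11, the Xcr1- and Ifitm1-labelled cells kept the genes that tell type 1 from type 2 dendritic cells apart. In mice 1 and 2, 176 of 7513 genes were higher in the Xcr1-labelled cells (2.34%) and 343 were higher in the Ifitm1-labelled cells (4.57%). These labels came from a clustering of the same genes, so the differences describe the labels. Irf8, the lineage factor of type 1 cells, stood at 2147 and 1969 CPM against 103 and 106 CPM (18.8-fold). Xcr1 stood at 350 and 319 CPM against 5.29 and 1.90 CPM (40.2-fold). Gcsam had 220 UMIs in the Xcr1-labelled and 0 in the Ifitm1-labelled cells, at least 53.3-fold higher against a floor of 3 UMIs over the class. Cd209a, a C-type lectin of type 2 cells, stood at 3.53 and 1.59 CPM against 739 and 580 CPM (88.0-fold lower). Sirpa, the inhibitory receptor of type 2 cells, stood at 3.53 and 3.17 CPM against 145 and 135 CPM (17.4-fold lower). For all these genes the classes lay far apart in both mice.

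By list, 19 of 19 type 1 identity genes were higher in the Xcr1-labelled dividing cells (median log2 difference 2.91) and 17 of 22 type 2 identity genes were lower (median −3.19), beside −0.04 over all genes. The same differences between the resting subclusters 6 and 4 had medians of 3.27 and −3.40, with the same sign in 19 of 19 and 21 of 22 genes. Lyz2 was the exception, at 0.56 among dividing and −1.06 among resting cells, and Clec12a, a lectin receptor, was higher on the Xcr1 side in both (0.45 and 0.78). Csf1r had the same sign but a difference of −1.13 among dividing and −3.02 among resting cells. Cell by cell, the thinned type 1 sum exceeded the type 2 sum in 80 of 80 Xcr1-labelled and 3 of 43 Ifitm1-labelled dividing cells, and in 360 of 367 cells of subcluster 6 and 6 of 516 of subcluster 4. Of 52 G2 and M genes 0 were counted between the labels (median 0.17). The S phase side of the cycle was lower in the Xcr1-labelled cells, with a median of −0.56 over 41 S phase genes, although only Mcm4 and Ccne2 of that list, Ccne1 of 25 cyclins, CDKs and E2F factors and 2 of 40 clustered histones (Hist1h2bn and Hist1h3f) reached 2-fold in both mice. Mcm4, a helicase subunit, stood at 38.0 and 31.7 CPM against 88.6 and 87.4 CPM, and Ccne2, a cyclin of S phase entry, at 9.71 and 12.7 CPM against 26.4 and 32.3 CPM. Further lists stood on the Ifitm1 side. Lower in the Xcr1-labelled cells were 8 of 23 interferon response genes (median −1.26), 4 of 7 tested macrophage and monocyte genes (Mrc1, Fcgr1, Adgre1 and Cd14; median −2.38), 6 of 13 migratory genes (median −1.20) and 3 of 12 class II genes (median −0.44). Rtp4, of the interferon list, stood at 3.53 and 0 CPM against 129.5 and 144.5 CPM, and in the resting cells of these mice at 4.72 and 4.77 CPM in subcluster 6 against 168.5 and 141 CPM in subcluster 4.

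**Figure D5:**
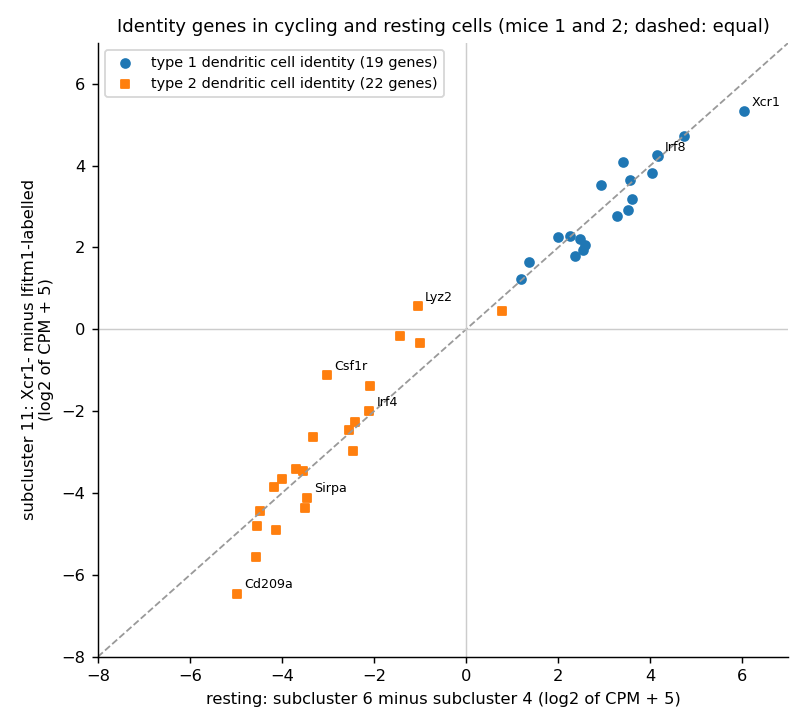
Log2 difference between Xcr1- and Ifitm1-labelled cells for each type 1 and type 2 identity gene, among dividing cells of subcluster 11 (vertical axis, 2 mice) and among resting cells of subclusters 6 and 4 (horizontal axis). The 19 type 1 genes lie above 0 on both axes, and the 22 type 2 genes lie below 0 on both except Lyz2 (0.56 among dividing and −1.06 among resting cells) and Clec12a (0.45 and 0.78).

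The dividing T cells of subclusters 8 and 14 served as a second kind of dividing cell. Against them, 669 of 7955 genes were higher in subcluster 11 (8.41%) and 507 were lower (6.37%), with a median log2 difference of −0.16 over all genes, which became −0.04 under TMM scaling, where 63.1% rather than 56.9% of the counted genes were higher. Few genes of the cell cycle lists were counted. Of 52 G2 and M genes 0 were counted (median −0.46), of 46 clustered histones 1 and of 42 S phase genes 2, both lower (among them Ung; median −0.57). The summed levels were nevertheless lower than in the dividing T cells in each mouse. The G2 and M sum was 10470, 10020 and 10330 CPM against 13330, 13040 and 15600 CPM. The S phase sum was 2799, 3560 and 2944 CPM against 4194, 4778 and 4530 CPM, and the clustered histone sum 4505, 4711 and 6463 CPM against 7452, 7979 and 7508 CPM. Oxidative phosphorylation was a list outside the cycle with as few counted genes, 0 of 84 (median −0.09). Dendritic cell genes were higher, with 14 of 17 core genes (median 4.31) and 11 of 12 class II genes (median 4.69), and T cell genes lower, with 15 of 15.

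Of 25 cyclins, CDKs and E2F factors, 3 were counted between the 2 kinds of dividing cell, 1 higher and 2 lower. Over all genes the shares were 8.41% higher and 6.37% lower. The list thus lay below the background for higher genes and slightly above it for lower genes. Ccnd1, a D-type cyclin, stood at 279, 336 and 256 CPM in subcluster 11 against 3.89, 3.29 and 1.76 CPM in the dividing T cells (37.0-fold). Cdk6, a partner kinase of D-type cyclins, stood at 11.8, 18.1 and 15.7 CPM against 133, 103 and 64.4 CPM. The mice did not overlap for either gene, and Cdc25b, a phosphatase that activates CDKs, was the other lower gene of the list. Ccnd1 was not a gene of the dividing state among dendritic cells. It stood at 256, 233 and 225 CPM in Xcr1-labelled dividing cells and 427, 460 and 345 CPM in subcluster 6, and at 320 and 460 CPM in Ifitm1-labelled dividing cells and 605 and 508 CPM in subcluster 4, lower in the dividing class in each mouse. Ccne1, the cyclin of S phase entry, went the other way, at 27.4, 36.5 and 40.4 CPM against 8.504, 11.1 and 9.77 CPM among Xcr1-labelled cells, and at 79.3 and 91.2 CPM against 8.84 and 9.14 CPM among Ifitm1-labelled cells.

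Cholesterol synthesis was a further list on which the dendritic cells stood above the dividing T cells, with 6 of 19 genes higher (among them Fdps, Msmo1, Mvd and Srebf2; median log2 difference 1.13). Fdps, which makes farnesyl diphosphate, stood at 423, 434 and 775 CPM against 101, 116 and 84.7 CPM. The mice did not overlap. Between Xcr1-labelled dividing and resting cells, 0 of 19 genes of the list were counted in either direction. Among 18 immediate early and heat shock genes 5 were higher than in the dividing T cells (Atf3, Fos, Egr1, Zfp36 and Jun).

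Several brakes of the cycle were present in the dividing dendritic cells. Cdkn2d, the CDK4 and CDK6 inhibitor p19, stood at 198, 220 and 216 CPM in subcluster 11, against 34.3, 38.6 and 59.2 CPM in subcluster 6, 75.2, 97.7 and 91.0 CPM in subcluster 4 and 84.8, 101 and 148 CPM in the dividing T cells. Cdkn2c, the inhibitor p18 of the same kinases, stood at 58.2, 70.9 and 50.0 CPM, against 8.74, 5.82 and 11.8 CPM in subcluster 6 and 7.83, 6.22 and 5.95 CPM in subcluster 4. Both genes lay above every mouse of subclusters 6 and 4, and Cdkn2d also above every mouse of the dividing T cells. Neither was among the brakes counted against the dividing T cells. Against the dividing T cells, 3 brakes were higher (Klf4, Klf2 and Btg2) and 2 were lower (Cdkn2a and Rbl2) among 20 tested.

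Of the Myc family of growth regulators, Mycl followed the label. It stood at 91.9, 87.2 and 116 CPM (98.2 ± 15.3, SD, n = 3) in Xcr1-labelled dividing cells and 117, 125 and 107.5 CPM in subcluster 6, with mice that overlapped. In Ifitm1-labelled dividing cells it stood at 25.1 and 20.9 CPM, against 9.56 and 6.58 CPM in subcluster 4, and it was counted as higher there. The dividing T cells held 0.144, 1.10 and 0.882 CPM. Myc stood at 14.9, 21.6 and 14.7 CPM in subcluster 11, and Mycn had 0 UMIs in its 4128851 UMIs, which allows up to 3 UMIs.

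The growth factor receptors gave a mixed picture between dividing and resting cells. Flt3 was lower in Xcr1-labelled dividing cells, at 132.5, 143 and 148 CPM (141 ± 8.02, SD, n = 3) against 181, 194 and 186.5 CPM in subcluster 6 (187 ± 6.51), and the mice did not overlap. In Ifitm1-labelled cells of mice 1 and 2 it was higher, at 33.0 and 51.3 CPM against 24.3 and 26.0 CPM in subcluster 4, while the 3 such cells of mouse 3 held 21.3 CPM against 32.7 CPM. Neither difference reached 2-fold in every mouse. Kit, the stem cell factor receptor of progenitors, stood at 57.7, 50.1 and 71.6 CPM in subcluster 11, 73.5, 77.8 and 69.5 CPM in subcluster 6 and 54.8, 27.4 and 41.3 CPM in subcluster 4, and it overlapped both. Cd34, a surface marker of progenitors, was near 0 in all 3 classes, at 2.57, 0 and 0.981 CPM in subcluster 11. Csf2ra, the alpha chain of the GM-CSF receptor, stood at 147, 149 and 141 CPM in subcluster 11, below each mouse of subclusters 6 (172, 151 and 178 CPM) and 4 (201, 212 and 216 CPM).

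Markers of migration were near 0. Ccr7, the chemokine receptor that guides mature dendritic cells to lymph nodes, had 7 UMIs in subcluster 11, at 1.03, 4.32 and 0 CPM, against 1697 CPM on average in subcluster 12. The resting subclusters held 15.4, 11.7 and 4.89 CPM (6) and 28.4, 20.9 and 49.0 CPM (4), above the dividing cells in each mouse. The 5 defining migratory markers ranged from 4.63 to 8.83 CPM in sum.

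Jaml, the adhesion receptor used for the sort, stood at 386, 281 and 328.5 CPM in subcluster 11 (332 ± 52.7, SD, n = 3), the sixth highest mean of the 16 subclusters and next to subcluster 6 (349 ± 36.0), from which it did not differ beyond the spread of the mice. By label it was 443, 311 and 352 CPM in the Xcr1-labelled and 296 and 245 CPM in the Ifitm1-labelled dividing cells, against 389, 338 and 320 CPM in subcluster 6 and 255.5 and 213 CPM in subcluster 4. The dividing T cells held 75.6, 75.2 and 97.9 CPM, below every mouse of these classes. Cxadr, which encodes the ligand of Jaml, had 0 UMIs in subcluster 11. The order of the labels for Jaml was thus the same in dividing and resting cells.

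Transcripts of other lineages were low. Summed T cell list levels were 196, 86.4 and 307 CPM in subcluster 11, against 7241, 10120 and 10560 CPM in Cd3g-labelled cells. The defining plasmacytoid markers ranged from 26.3 to 55.9 CPM, natural killer markers from 0 to 1.54 CPM and neutrophil markers from 3.46 to 6.86 CPM, and the B cell markers Cd79a and Ms4a1 were at 0. At least 2 UMIs summed over Cd3d, Cd3e, Cd3g and Cd79a were found in 27 of the 129 cells (20.9%), against 17.3% of subcluster 6, 19.5% of subcluster 4 and 98.3% of subclusters 8 and 14. The share in subcluster 11 was thus close to that of the resting dendritic cells, at a higher depth per cell, and no doublet caller was run. Of the 3 Pdcd1-labelled cells, 1 had 78 UMIs of T cell genes and 54 of class II genes, and the others had 1 and 0 of T cell genes and 988 and 2117 of class II genes. All 3 had UMIs of Mki67, Top2a and Flt3, and the label of 2 of them, shared with dividing T cells, goes against their T cell UMIs.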

How the data were processed

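Cells sorted as CD45+ JAML+ from tumours of 3 hashtagged mice were read in 1 gene expression library. Per the submitters' processing notes, Cell Ranger 3.1.0, Seurat 3.1.5 and the mm10 build were used. The deposited matrix holds UMI counts of the authors, not normalized, for 15416 genes and 5976 cells. The authors' annotation gives the mitochondrial percent, cluster numbers, labels and map coordinates, a score not used in any result. All 5976 deposited cells had between 1499 and 5999 genes and at most 5% mitochondrial UMIs. The annotation's species field reads Human, while the gene symbols are those of mouse.

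UMIs of the cells of a class were added up in each mouse, leaving out classes with under 10 cells there. CPM is this sum over the class's total. Subcluster 11 holds 4128851 UMIs, and 8 cells of the library had no hashtag. The members, lists and comparisons were chosen with earlier results of these data known. Named genes are the 15 with the largest mean log2 difference per direction among counted genes with at least 30 CPM and UMIs in at least 25% of cells of the higher class, with up to 4 members per list and the defining markers. Intervals are exact Clopper-Pearson 95% intervals, and intervals and floors of 3 UMIs cover counting error only, as all values come from 1 library. Histone genes of division mostly lack a poly(A) tail, and the library was made from polyA RNA. Scripts used Python 3.11.15, numpy 2.4.6 and pandas 2.3.3, and were tested on simulated data. edgeR 4.0.16 in R 4.3.3 gave TMM factors for 1 alternative. Others were a pseudocount of 1 CPM, no filter on low levels, thinned cells, means of cells' CPM, other reference cells, removal of cells with conflicting UMIs, and each mouse left out. Results for a few genes are not reported here.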

Additional observations from a re-analysis of the deposited data

Results flagged for a closer look

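Flt3 differed in direction between the labels. In Xcr1-labelled cells its log2 difference between dividing cells of subcluster 11 and resting cells of subcluster 6 was −0.40 (SD 0.06, 3 mice), lower in 3 of 3 mice. In Ifitm1-labelled cells the difference between dividing cells and subcluster 4 was 0.62 (SD 0.35, 2 mice), higher in 2 of 2 mice. The mice with at least 10 cells of a class thus went one way in one label and the opposite way in the other. Mouse 3, left out for the second label with 3 dividing cells, went lower there, at 21.3 CPM against 32.7 CPM. The difference between the labels was not tested.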

How the results depend on the processing

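No gene that was counted as higher or lower, among the single genes followed, reversed its direction under the alternatives run. Most of these genes were chosen for the largest differences of their comparison, so a reversal was unlikely from the start. A reversal was not scored for counts, nor for genes that were not counted, such as Flt3 and Jaml between dividing and resting cells. The median log2 difference over all genes between the labels was −0.04 and became 0.02 under TMM scaling. The share of cells in subcluster 11 (2.16%) was 3.57% among cells without conflicting UMIs (at least 2 of Cd3d, Cd3e, Cd3g and Cd79a together). That removal took out 3115 of 5976 cells, among them 95.9% of the Cd3g-labelled cells, whose own genes these are. The rise thus follows from the loss of T cells from the total. The share was 3.03% when dividing cells were defined by Mki67 and Top2a UMIs, and 1.76 to 2.67% with each mouse left out. By those UMIs, a definition chosen after the data were seen, the Xcr1-labelled share (18.2%) was 24.2% and the Ifitm1-labelled share (6.35%) 10.4%. Genes lower in Xcr1-labelled dividing cells (7) numbered 29 with a pseudocount of 1, 27 after thinning, 4 from means of cells' CPM, and 18 to 40 without a mouse. Genes lower in Ifitm1-labelled dividing cells (84) numbered 150 with a pseudocount of 1, 214 after thinning, 136 against all other Ifitm1-labelled cells, and 227 to 369 without a mouse. Between labels, the higher genes (176) numbered 316 after thinning and 363 to 479 without a mouse, and the lower genes (343) 703 to 710 without a mouse. With 1 mouse left, the rule of every mouse asks for less, which by construction raises a count. Against the other Xcr1-, Ifitm1- and Siglech-labelled cells, 47.3% of the counted genes were higher in subcluster 11, in place of 35.9%. The share was 44.5% without conflicting cells, a removal that likewise takes most T cells out of the compared cells. Of 1452 values of single genes under an alternative, 1199 moved by less than the SD over mice and 253 moved by more. Some of the 1199 could not move by construction. Dropping the filter on low levels changes no gene's value, and for Xcr1-labelled cells the other reference cells were the same cells of subcluster 6. The tally therefore overstates how steady the values were. No paired test was run, as no test was run. The 2 samples that share replicate number 1 are the gene expression and antibody libraries of the same sort and do not form a pair for comparison. Differences between classes were already taken within each mouse. Depth limits genes near 1 UMI, and the 2 mice with Ifitm1-labelled dividing cells limit the precision of every value on that side.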
